A study of Mus musculus with 2 samples.

Results

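The nuclear genes of the mitochondrial respiratory chain were followed across the cell types of tumour leukocytes. Members were taken by name: symbols starting with Nduf and a letter from a, b, c, s or v, with Sdh and a letter from a to d, with Uqcr, with Cox4 to Cox8, or with Atp5, no pseudogenes. A member also needed at least 20 UMIs (unique molecular identifiers, each standing for 1 captured RNA molecule) over all annotated cells. Of 96 symbols that matched, 93 passed, among 27998 genes in the matrices. The symbols left out were Cox7b2 and Cox8c with 0 UMIs and Cox8b with 1 UMI, and the lowest that passed were Ndufa4l2 with 152, Cox4i2 with 173 and Atp5s with 210. The members held 1416450 UMIs, and the 10 most abundant of them held 31.0%.

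The chain passes electrons from NADH at complex I and from succinate at complex II to ubiquinone, then through complex III and cytochrome c to complex IV, which reduces oxygen. Complexes I, III and IV pump protons out of the matrix, and complex V, ATP synthase, makes ATP as they flow back. All of complex II and most subunits of the other complexes are nuclear genes. The remaining subunits of complexes I, III, IV and V are encoded in mitochondrial DNA. Of the members, 36 belonged to complex I, 4 to complex II, 8 to complex III, 16 to complex IV and 15 to complex V. The other 14 are assembly factors of complexes I and II (Ndufaf and Sdhaf names), 2 genes named after ATP synthase, Atp5s and Atp5sl, and Cox7a2l, a factor for supercomplexes of III and IV. Ndufa4 and its relative Ndufa4l2 were placed with complex IV, where the NDUFA4 protein is known to sit. All 93 are annotated as protein coding in GENCODE M21 and lie on 19 chromosomes.

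YUMM1.7 is a melanoma cell line of the mouse, and the study compared the leukocytes in its tumours between mice with human APOE2 and mice with human APOE4 knocked in. In both groups 100000 tumour cells mixed with Matrigel were placed under the flank skin, and on day 19 living CD45+ cells were sorted, 10000 from each of 6 mice, and pooled by genotype before a Chromium 3' v3 library was made. The annotated cells numbered 4665 in the APOE2 library and 5385 in the APOE4 library, under 26 names given by the authors, with 38959426 and 36046103 UMIs and medians of 7160 and 5560 UMIs per cell. Each genotype is thus 1 library of pooled animals, so mice cannot be told apart, no test between genotypes is possible, and all intervals (exact, 95%) cover counting error only.

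Values are shares of all UMIs of a label, in percent or as CPM, counts scaled to a common total, so that 1.96% is 19602 CPM. A 3' library counts a captured molecule once whatever its length, but how often a molecule is captured and assigned differs between genes: the ribosomal protein gene Rps12 was counted at 3.70 and 4.52 CPM, and Rps24 at 4398 and 4534. Values of different genes set side by side are therefore UMI counts and not amounts of RNA. The labels come from the authors' clustering of these same cells, so differences between labels are descriptions. Levels are given for labels with at least 20 cells in a library and ratios between libraries for the 19 labels with at least 50 cells in each. On the marker lists, the neutrophil genes S100a8, S100a9, Csf3r, Cxcr2 and Retnlg stood highest in all 4 labels named MDSC, the 2 called M-MDSC included. Skin resident Mø stood high on none of the lists: its best was the B cell list, with 1 of 3 genes detected and 1.59 and 2.34 times the level of the median label. Ki67+ CD8+ T cells in APOE2 went against their name: the 2 CD8 genes Cd8a and Cd8b1 summed to 55.1 CPM there, against 644 in APOE4 and 844 and 2133 in CD8+ T cells. pDCs stood highest of all labels on the pDC genes, at 7502 and 7769 CPM, and carried the CD8 genes at 959 and 1334 CPM with T cell genes at 32.6 and 67.7. Relative to the median label, their highest list was CD8 T cells in APOE2 (210 times) and cDC1 in APOE4 (54.1 times). Monocytic DCs held 10903 and 6874 CPM of the monocyte and macrophage markers, with cDC1 markers at 48.5 and 67.3 CPM and cDC2 markers at 216 and 133. Relative to the median label, cDC1 was nevertheless their highest list, at 48.5 and 46.2 times. Of the barcodes, 9 occurred in both matrices, and 8 of them were annotated in both.

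Many respiratory chain promoters are known to carry sites for NRF1, for ETS factors such as GABP, or for YY1. RefSeq promoter windows (GRCm38.p6, which is mm10; 250 bases before to 50 after the start) were at hand for 75 members, 80 windows in all. The NRF1 letters, GCGC and again GCGC with any 2 bases between them, were found in 30% of the member windows and in 6.23% of all 32851 windows. The ETS letters CCGGAAG, on either strand as for each search, were found in 25% against 8.86%, and the YY1 letters AAGATGGC in 11.3% against 2.75%. At least 1 of these was present in 57.5% of member windows and in 16.0% of all windows, whereas TATAAA was found in 8.75% and 13.6%. A match is a string of letters and not a shown binding site, and windows of 1 gene can overlap.

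Below are the 250 bases before the start, 5′ to 3′ on the gene's strand, with NRF1, ETS and YY1 matches in capitals. In each complex the member with the most UMIs and a match in this stretch is shown, followed by 2 scarce complex IV isoforms with no match, Cox6b2 and Cox7a1, shown because they are among the 4 members past 1.5-fold between the libraries. The stretches are chr8:83566508-83566757 (+) for Ndufb7, chr9:50603850-50604099 (-) for Sdhd, chr4:116075071-116075320 (-) for Uqcrh, chr7:30626115-30626364 (-) for Cox6b1, chr9:44920743-44920992 (-) for Atp5l, chr7:4753095-4753344 (-) for Cox6b2 and chr7:30183921-30184170 (+) for Cox7a1.
Ndufb7: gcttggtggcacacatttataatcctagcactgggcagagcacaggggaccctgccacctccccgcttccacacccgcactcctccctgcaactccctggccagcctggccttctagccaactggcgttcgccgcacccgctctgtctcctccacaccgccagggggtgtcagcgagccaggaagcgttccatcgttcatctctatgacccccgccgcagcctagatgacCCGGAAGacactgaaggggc
Sdhd: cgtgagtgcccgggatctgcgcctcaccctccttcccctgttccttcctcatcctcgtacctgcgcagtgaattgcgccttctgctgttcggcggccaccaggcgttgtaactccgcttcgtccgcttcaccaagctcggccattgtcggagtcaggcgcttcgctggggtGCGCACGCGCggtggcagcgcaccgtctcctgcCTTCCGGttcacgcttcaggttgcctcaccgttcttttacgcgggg
Uqcrh: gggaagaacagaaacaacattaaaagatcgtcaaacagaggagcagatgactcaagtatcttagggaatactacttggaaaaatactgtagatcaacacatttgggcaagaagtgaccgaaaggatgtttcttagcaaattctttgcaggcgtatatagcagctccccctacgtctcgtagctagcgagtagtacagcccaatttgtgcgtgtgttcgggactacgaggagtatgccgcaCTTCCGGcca
Cox6b1: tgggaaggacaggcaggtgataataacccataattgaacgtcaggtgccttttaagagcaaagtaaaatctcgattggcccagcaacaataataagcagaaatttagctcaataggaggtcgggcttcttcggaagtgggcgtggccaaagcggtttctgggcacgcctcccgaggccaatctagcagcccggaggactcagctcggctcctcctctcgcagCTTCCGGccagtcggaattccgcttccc
Atp5l: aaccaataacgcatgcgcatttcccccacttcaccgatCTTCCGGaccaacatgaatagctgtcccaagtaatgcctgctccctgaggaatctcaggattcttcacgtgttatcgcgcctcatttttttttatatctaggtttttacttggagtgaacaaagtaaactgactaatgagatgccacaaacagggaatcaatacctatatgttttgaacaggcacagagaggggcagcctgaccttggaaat
Cox6b2: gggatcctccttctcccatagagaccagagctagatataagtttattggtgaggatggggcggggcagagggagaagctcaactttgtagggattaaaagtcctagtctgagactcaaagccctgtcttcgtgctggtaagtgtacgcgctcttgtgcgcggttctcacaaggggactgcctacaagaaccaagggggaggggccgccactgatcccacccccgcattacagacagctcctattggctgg
Cox7a1: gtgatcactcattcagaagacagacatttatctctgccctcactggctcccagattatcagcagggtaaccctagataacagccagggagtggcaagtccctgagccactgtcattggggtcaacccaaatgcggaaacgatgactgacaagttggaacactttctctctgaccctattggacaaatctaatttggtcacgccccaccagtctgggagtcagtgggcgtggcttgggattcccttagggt
The Sdhd stretch holds an NRF1 and an ETS match, and those of Ndufb7, Uqcrh, Cox6b1 and Atp5l an ETS match each. Those of Ndufb7 and Atp5l also hold TATAAA on the opposite strand, left in lower case. That no match was found before Cox6b2 and Cox7a1 says only that these letters are not in this window.

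Over all annotated cells the members held 1.96% of UMIs in the APOE2 library and 1.81% in the APOE4 library. The level was similar in most cell types and departed from it in few. Across 20 labels of lymphocytes, monocytes, macrophages, dendritic cells, mast cells and stromal cells it lay between 1.43% and 2.31% in APOE2 (median 1.88%) and between 1.44% and 2.30% in APOE4 (median 1.83%). Below this range were the 4 MDSC labels and the few basophils (12 and 11 cells), and above it was Skin resident Mø. The order of the 24 labels with at least 20 cells in each library was alike in both, with Spearman's rho 0.88. Within each library, with every label of at least 20 cells ranked, 16 of 24 neighbouring pairs in APOE2 (25 labels) and 17 of 23 in APOE4 (24 labels) had overlapping intervals, so the order within the middle range is loose.

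The lowest level in APOE2 was in G-MDSC 1, at 0.730% (0.698 to 0.764, 146 cells), followed by M-MDSC 2 at 0.749% (36 cells), M-MDSC 1 at 0.806% (515 cells) and G-MDSC 2 at 1.09% (29 cells). In APOE4 they were at 0.721%, 0.612%, 0.770% and 0.907% in the same order of names. No other label with at least 20 cells came below 1.43%. Basophils, under that bound, were similarly low, at 0.752% (0.663 to 0.851, 12 cells) in APOE2 and 0.961% (0.862 to 1.07, 11 cells) in APOE4. G-MDSC 1 cells held a mean of 13.02 member UMIs each in APOE2, against 128 in Monocytes 1 and 97.9 in NK cluster 2. These means are not scaled for depth, which had medians of 1704, 6711 and 4609 UMIs per cell in the same order. At the upper end, cycling Ki67+ CD8+ T cells held 2.31% and 2.23%, Monocytic DCs 2.23% and 2.18%, and mast cells 2.10% and 2.30% (48 and 24 cells). Skin resident Mø held 5.10% in APOE2 (5.06 to 5.14, 47 cells) and 5.08% in APOE4 (4.98 to 5.17, 8 cells).

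**Figure D1:**
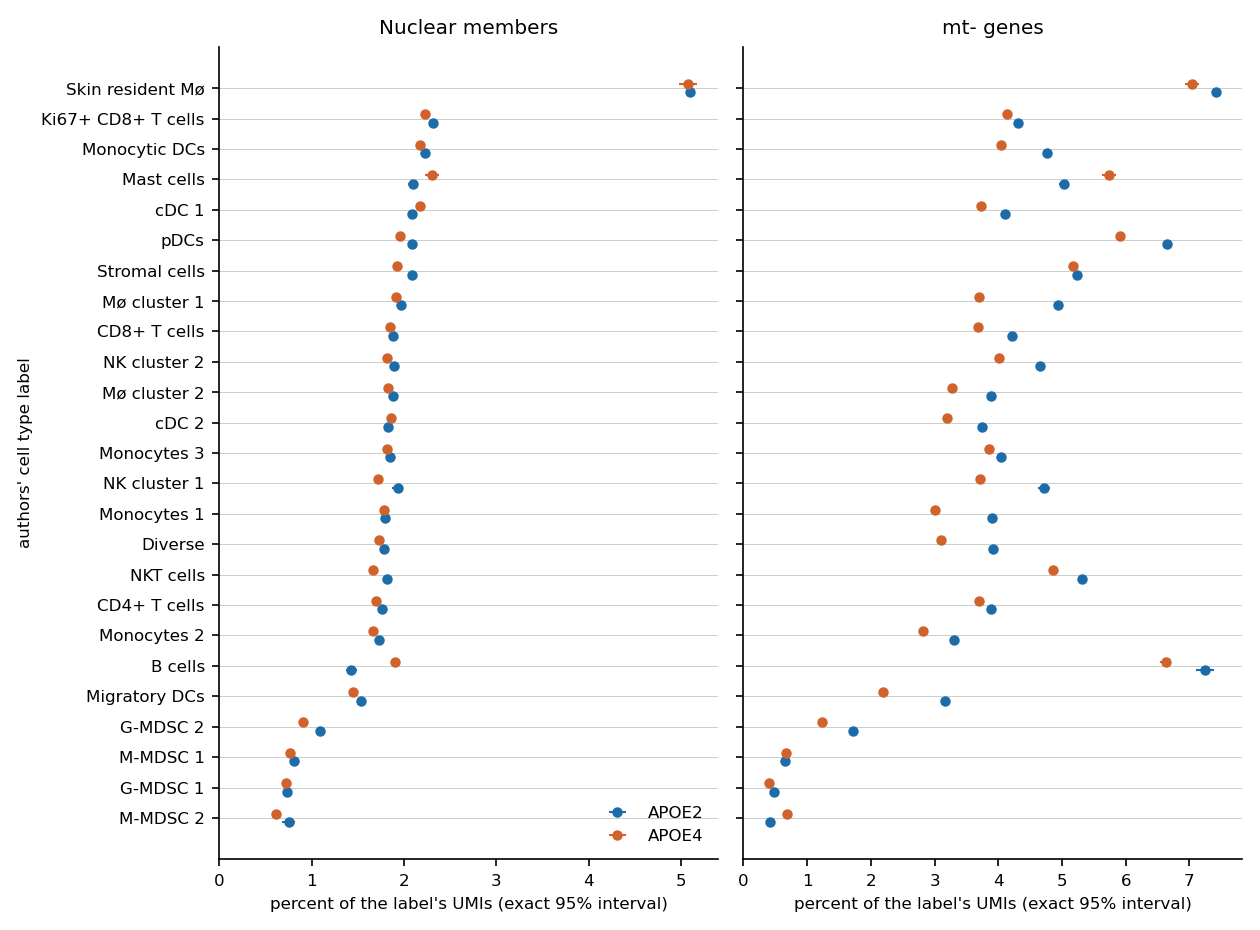
Percent of UMIs from the 93 nuclear members (left) and from the 13 mt- genes (right) in each label, with exact 95% intervals of counting error; blue APOE2, orange APOE4. Basophils are not shown. Of the labels shown, the 4 MDSC labels lie lowest on both sides, and Skin resident Mø (8 cells in APOE4) lies highest on the left at 5.10% and 5.08%.

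The 13 mt- genes, which encode the mitochondrial part of the same complexes, held 4.23% of UMIs in APOE2 and 3.54% in APOE4. Over labels, nuclear and mt- levels went together with rho 0.69 in APOE2 and 0.77 in APOE4 (24 labels), and with 0.47 and 0.60 without the MDSC labels. The points share the UMI total of each label. The proportion between the 2 sets was not fixed: mt- UMIs per nuclear UMI were 0.654 and 0.556 in G-MDSC 1, 1.45 and 1.39 in Skin resident Mø, 3.18 and 3.03 in pDCs, and 2.16 and 1.96 over all cells. B cells in APOE2 combined 1.43% of nuclear with 7.24% of mt- UMIs (36 cells), a ratio of 5.06. In APOE4 they held 1.90% and 6.63% (62 cells), a ratio of 3.48, so the low nuclear share was seen in APOE2 only. The annotated cells reached 9.97% and 9.95% of mitochondrial UMIs at most, so mt- sums are capped by the authors' choice of cells.

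In the summed 4 MDSC labels the members held 0.838% of UMIs in APOE2 and 0.743% in APOE4. This is 2.25-fold and 2.47-fold below the median of the other 20 labels. Every complex was lower. Complex III, which passes electrons to cytochrome c, was at 693 and 654 CPM against medians of 1947 and 1833, so 2.81-fold and 2.80-fold lower. Complex IV was the least lowered, at 2656 and 2358 CPM against 5067 and 5010, or 1.91-fold and 2.12-fold. Complex I was 2.16-fold and 2.61-fold lower, complex II 2.03-fold and 2.19-fold, complex V 2.45-fold and 2.59-fold, and the assembly factors with the other members 3.33-fold and 3.08-fold. Most of that last group was 1 gene, Cox7a2l, at 144 and 135 of the group's 227 and 221 CPM in MDSC.

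Single members followed the sums to different degrees. Of the members, 83 had a median of at least 10 CPM over the other 20 labels, a filter that itself leans towards lower values in MDSC. Of these, 83 in APOE2 and 82 in APOE4 were below that median in the MDSC labels, as were 71.6% and 70.8% of all genes that pass the same filter. At 0.5 times or less were 56 and 60 members, against 41.9% and 43.9% of all genes. The exception was Ndufaf7, a methyltransferase for complex I assembly, at 13.1 against 16.7 CPM in APOE2 and 20.8 against 16.8 in APOE4. The 10 members under the filter were Cox4i2, Cox6a2, Cox6b2, Cox7a1, Ndufa4l2, Atp5s, Ndufaf1, Ndufaf5, Ndufaf6 and Sdhaf3.

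Among the genes nearest to the common level were small subunits. Cox8a, a subunit at the outer edge of complex IV, was at 772 and 664 CPM in MDSC against 839 and 811 in the median other label. Atp5l, subunit g of ATP synthase, was at 445 and 440 against 574 and 563. Cox6a1 was at 174 and 176 against 220 and 218, and Ndufb9 of complex I at 213 and 194 against 240 and 241. All 4 were less than 1.30-fold below the median other label in both libraries.

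The 3 genes Atp5g1, Atp5g2 and Atp5g3, which all encode the same mature c subunit of the proton-driven ring, stood at the other end. Atp5g1 was at 48.1 and 41.5 CPM in MDSC against 272 and 238, Atp5g2 at 92.8 and 64.8 against 473 and 484, and Atp5g3 at 42.6 and 39.6 against 231 and 214. Each was at least 5.10-fold lower in both libraries. Uqcrb, a nuclear subunit of complex III, was at 60.5 and 43.4 against 282 and 268. Ndufa5 of complex I, chosen after its values were seen, had 9 and 5 UMIs in all MDSC cells, 6.18 and 3.15 CPM against 75.6 and 69.1.

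Other lists were lower in these labels as well. Summed cytosolic ribosomal protein genes were 4.81-fold and 5.77-fold below the median other label, mitochondrial ribosomal protein genes 2.11-fold and 2.36-fold, and genes of the tricarboxylic acid cycle 2.23-fold and 2.17-fold. Glycolysis genes were at 1.32 and 1.19 times the median other label. The 5 neutrophil marker genes alone took 136433 and 137891 CPM in G-MDSC 1 and 266899 and 292148 CPM in G-MDSC 2, with 5 of 5 detected, and their part in the lower shares was not tested. They took 44101 and 38817 CPM in M-MDSC 1, where the 8 monocyte and macrophage markers summed to 983 and 929 CPM. Median depth was 1704 and 1782 UMIs per cell in G-MDSC 1 and 1631 and 1619 in M-MDSC 1. In G-MDSC 2 it was 7278 and 5623. The part of depth in these shares was not tested.

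The label Skin resident Mø, 47 cells in APOE2 and 8 in APOE4, held the members at 2.71 and 2.77 times the median other label. Complex II stood out most, at 1763 and 1541 CPM against 415 and 408, or 4.25-fold and 3.77-fold higher. Complex III was 3.09-fold and 3.14-fold higher, complex IV 2.77-fold and 2.85-fold, complex V 2.67-fold and 2.71-fold, and complex I 2.61-fold and 2.61-fold. The assembly group was 1.72-fold and 2.16-fold higher. Of the same 83 members, 81 were above the median other label in each library, against 44.8% and 45.8% of all genes that pass the filter. At 2 times or more were 64 and 65 members, against 11.8% and 14.4% of all genes.

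Sdhc, which anchors succinate dehydrogenase in the membrane, was at 372 and 358 CPM against 67.0 and 63.9, or 5.55-fold and 5.60-fold higher. Uqcr10, a small subunit of complex III, was at 961 and 905 against 192 and 172. Cox4i1, the most abundant member over all cells, was at 2428 and 2356 against 894 and 884. Atp5b, the catalytic beta subunit of ATP synthase, was at 1744 and 1546 against 427 and 418. Of the 83 members, those below the median other label were Atp5sl, from 13 and 2 UMIs, and Ndufaf7, from 4 and 0 UMIs.

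The high share was a property of most of these cells and not of a few. Per cell it ran from 2.32% over a median of 5.16% to 6.85% in APOE2, and from 2.61% over 4.94% to 7.04% in APOE4. Of 9995 cells outside the label, none reached the label's median, and 8.17% reached its lowest cell. Depth was high, with medians of 20690 and 23482 UMIs per cell, and its part in the share was not tested.

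Leading genes of the label, chosen after their values were seen, were Ctsk at 13777 and 9209 CPM and Acp5 at 12019 and 6213 CPM. Both are enzymes known from osteoclasts, and medians over the other labels were 3.99 and 1.17 CPM for Ctsk and 22.2 and 23.9 CPM for Acp5. Ppargc1b, a coactivator of mitochondrial genes, was at 135 and 104 CPM against 4.37 and 4.45. The 8 monocyte and macrophage markers were all detected, summing to 2267 and 1774 CPM, but unevenly. Cd68 was at 1184 and 706 CPM, against at most 523 and 483 in the other labels. Csf1r was at 696 and 457 CPM, against at most 630 and 654. Every marker but these stood far below the highest other label, such as Lyz2 at 137 and 19.9 CPM and Adgre1 at 16.0 and 39.8. Ptprc, which encodes CD45, was at 180 and 199 CPM, below its median of 894 and 1236. The name was kept as the authors gave it.

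**Figure D2:**
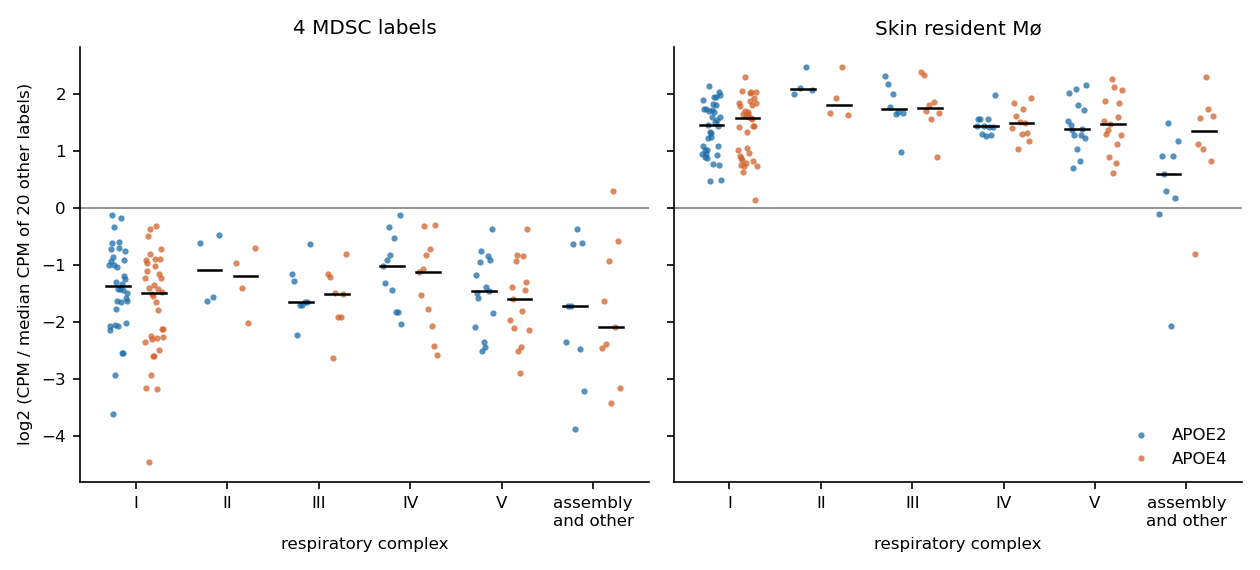
Each point is 1 member with a median of at least 10 CPM over the 20 other labels; the vertical axis gives log2 of its CPM in the 4 MDSC labels (left) or in Skin resident Mø (right) over that median, with black bars at the median of each complex. Nearly all points lie below 0 on the left and above 0 on the right in both libraries, and on the right complex II has the highest medians; Ndufaf7 in APOE4, with 0 UMIs, has no point there.

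The label Ki67+ CD8+ T cells was compared with CD8+ T cells, whose name it shares; in APOE2 its CD8 genes were low, as given above. It also held 5884 and 6372 CPM of the neutrophil list, with 3 and 4 of 5 genes detected, against 448 and 110 CPM in CD8+ T cells, and NK cell genes at 502 and 476 CPM against 167 and 504. Their part in the ratios was not tested. The members held 1.88% of UMIs in CD8+ T cells and 2.31% in Ki67+ CD8+ T cells in APOE2, a ratio of 1.23 (1.196 to 1.260), and 1.84% and 2.23% in APOE4, a ratio of 1.21 (1.19 to 1.23). Of the members measured in both labels, 55 of 62 and 62 of 73 were higher in the cycling label. Of all genes measured there, 51.7% and 47.4% were higher. Complex I was at 1.26 and 1.22 times, complex IV at 1.251 and 1.27 times and complex V at 1.29 and 1.248 times. The sum of complex III differed less, at 1.08 (0.996 to 1.17) and 1.05 (0.997 to 1.11). Yet 6 of its 8 genes were higher in each library, with median ratios of 1.31 and 1.26. The sum of the assembly group was lower, at 0.859 and 0.815, with only 1 of its genes measured there, at 0.649 and 0.683. Cytosolic ribosomal protein genes were at 0.935 and 0.962.

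Several subunits have more than 1 gene. Among labels with at least 50 cells in each library, the 4 members with the largest ratio of highest to median label were such isoforms. They were Cox6a2, Ndufa4l2, Cox7a1 and Cox4i2, and the last 2 were spread over several labels. Cox6a2 encodes the form of subunit VIa of complex IV known from heart and skeletal muscle. It lies on chr7:128205435-128206387 (GENCODE M21, mm10). It stood at 1197 CPM (1126 to 1271) in pDCs of APOE2 and at 782 CPM (740 to 825) in pDCs of APOE4. The next highest were Skin resident Mø at 29.8 CPM in APOE4, from 6 UMIs, and Mø cluster 2 at 14.3 CPM in APOE4. Of all its UMIs, 95.9% and 96.1% came from pDCs.

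A Cox6a2 UMI was found in 99 of 111 pDCs (89.2%) and in 169 of 205 (82.4%), at medians of 8046 and 7870 UMIs per cell. In Monocytic DCs, at 18123 and 19871 UMIs, it was found in 6 of 233 cells (2.58%) and in 1 of 120 (0.83%). The common form Cox6a1 was at 230 and 238 CPM in pDCs. Cox6a2 therefore made up 83.9% (81.7 to 85.9) of the 2 genes' UMIs in pDCs of APOE2 and 76.7% (74.6 to 78.6) in those of APOE4. In no other label with at least 20 cells did this exceed 5.62%.

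Ndufa4, a subunit of complex IV, has a paralogue, AA467197, known as an inflammation-induced protein that can take the place of NDUFA4 in the complex. AA467197 is outside the naming rule and is given for comparison. In M-MDSC 1, Ndufa4 was at 60.1 and 63.9 CPM and AA467197 at 319 and 334. In cDC 2 the values were 223 and 282 for Ndufa4 and 668 and 369 for AA467197. In CD4+ T cells they were 407 and 434 against 27.8 and 11.6, and in Skin resident Mø Ndufa4 reached 1412 and 1466, with 2 and 0 UMIs of AA467197.

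AA467197 had the more UMIs of the pair in 8 labels of each library: the 4 MDSC labels, Migratory DCs, Monocytes 2, Mø cluster 1 and cDC 2. Over labels the 2 genes ran opposite ways, with rho -0.77 in APOE2 (25 labels) and -0.81 in APOE4 (24 labels). The points share label totals, so this is a description. In Mø cluster 2 AA467197 made up 29.6% of the pair in APOE2 and 49.9% in APOE4, and in cDC 2 75.0% and 56.7%.

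**Figure D3:**
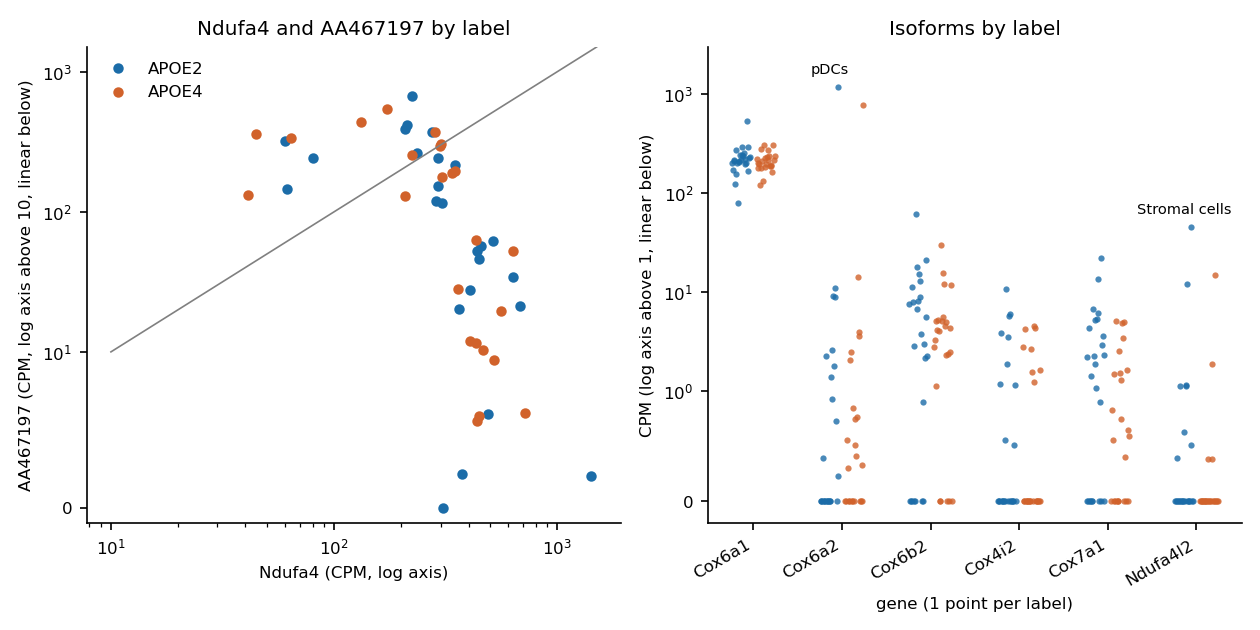
Left, Ndufa4 against AA467197 in CPM, 1 point per library and label with at least 20 cells in it, with the line of equality; right, CPM of 6 isoform genes, 1 point per label and library, axes as labelled. Cox6a2 stands at 1197 and 782 CPM in pDCs and at 14.3 CPM or less in the other labels shown, and labels high in AA467197 are those low in Ndufa4.

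The isoforms Ndufa4l2, Cox7a1, Cox4i2 and Cox6b2 were scarce everywhere. Ndufa4l2, known as a target of the hypoxia response, was highest in stromal cells, at 45.9 CPM (35.3 to 58.7) in APOE2 and 14.8 CPM (8.77 to 23.4) in APOE4. These are 63 UMIs in 7 of 85 cells and 18 UMIs in 4 of 85 cells, and 3 cells held 57 of the 63 and 17 of the 18. In Mø cluster 2, 51 UMIs came from 9 of 398 cells in APOE2, 45 of them from 3 cells, against 3 UMIs in APOE4.

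Cox7a1, the form of subunit VIIa known from muscle, was highest in Skin resident Mø, at 22.0 and 24.9 CPM, from 22 UMIs in 11 of 47 cells and 5 UMIs in 3 of 8 cells. In Mø cluster 2 it was at 13.6 CPM in APOE2 and 4.98 CPM in APOE4. There it was spread over 52 of 398 cells (13.1%, 9.91 to 16.8) and 7 of 161 cells (4.35%, 1.77 to 8.75), at medians of 9755 and 8406 UMIs. In Monocytes 1, with 6711 and 6642 UMIs, it was found in 3.23% and 1.04% of cells. Cox4i2, the second form of subunit IV, was highest in Monocytes 1 in APOE2, at 10.7 CPM from 33 UMIs. In APOE4 that label held it at 2.68 CPM, from 7 UMIs. Mø cluster 1 stood higher in APOE4, with 12 UMIs at a similar label total. Cox6b2, the form of subunit VIb known from testis, was highest in mast cells at 61.2 and 30.3 CPM, from 18 and 5 UMIs. In cDC 2 it was at 21.3 CPM in APOE2 and 11.7 CPM in APOE4, in 80 of 411 and 33 of 290 cells.

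The share of UMIs of the 3 c subunit genes varied between labels. Their sum was at 880 and 812 CPM in CD4+ T cells, where Atp5g2 gave 51.5% and 51.1% of it and Atp5g1 21.1% and 22.1%. In Skin resident Mø the sum was 2937 and 2823 CPM, with Atp5g1 at 39.5% and 40.5% and Atp5g2 at 33.0% and 26.4%. In mast cells Atp5g3 was the smallest part, at 14.5% and 15.8%.

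Between the libraries the summed members were at 19602 CPM in APOE2 and 18109 CPM in APOE4 over all annotated cells, a ratio APOE4/APOE2 of 0.924 (0.921 to 0.927). The make-up of the libraries enters this sum. Skin resident Mø held 1.01% of the cells but 6.68% of the member UMIs in APOE2, and 0.149% and 1.56% in APOE4. Without that label the shares were 1.88% and 1.79%, a ratio of 0.955. With equal weight for each of the 19 labels the mean ratio was 0.968 (mean log2 -0.05).

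Within labels the sum was lower in APOE4 in 17 of 19 and higher in 2, with ratios from 0.920 to 1.04. The interval lay below 1 in 13 labels, above it in 2 and held it in 4. The lowest ratios were in NKT cells, 18137 against 16688 CPM (ratio 0.920, 0.890 to 0.951), and in stromal cells, 20862 against 19207 CPM (0.921, 0.905 to 0.937). pDCs followed at 0.934. The higher labels were cDC 1, 20870 against 21777 CPM (1.04, 1.03 to 1.06), and cDC 2, 18299 against 18587 CPM (1.02, 1.00 to 1.03). With mt- and ribosomal protein genes left out of the total, the log2 ratio in cDC 2 was -0.00081, on the other side of 0, and in cDC 1 0.04. With 1 library each, differences of this size cannot be told apart from differences between 2 libraries of any origin.

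The mt- sum was lower in 18 of 19 labels, with a mean log2 of -0.20, more than the nuclear members. In Migratory DCs it was 31632 against 21868 CPM, a ratio of 0.691, where the nuclear ratio was 0.942. M-MDSC 1 was the exception at 1.05. In cDC 1 and cDC 2 the mt- ratios were 0.909 and 0.852, below 1 while the nuclear ratios were above it. By complex, the mean ratio over labels was 0.971 for complex I, 0.993 for II, 0.969 for III, 0.979 for IV, 0.958 for V and 0.932 for the assembly group. Most UMIs of the assembly group came from 1 gene, Cox7a2l, with 32414 over both libraries.

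**Figure D4:**
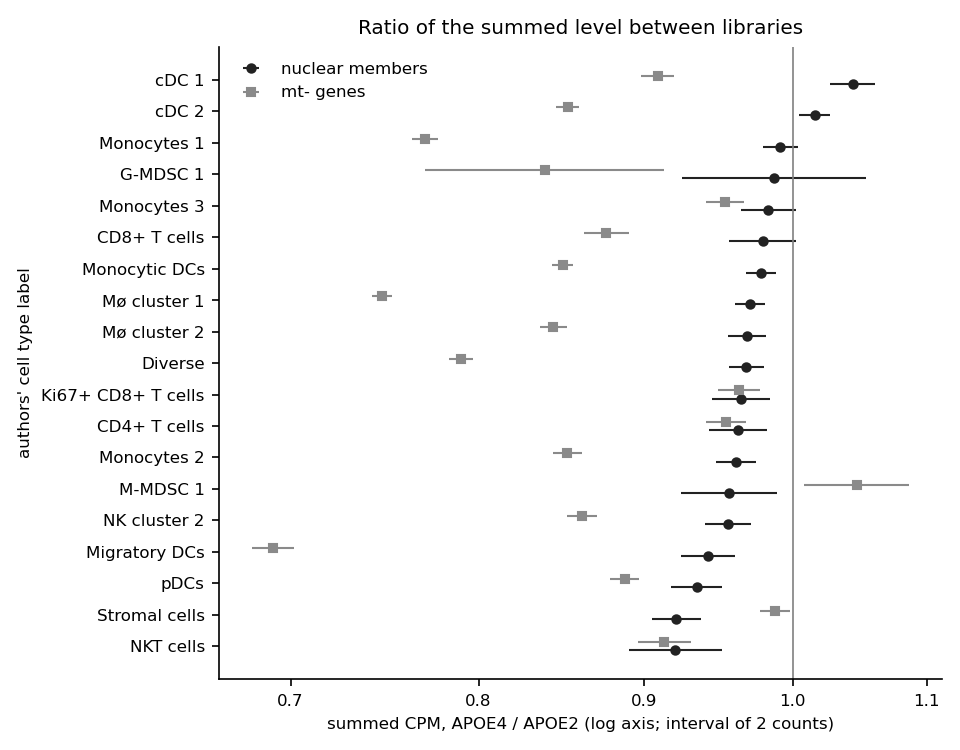
Ratio APOE4/APOE2 of the summed CPM in the 19 labels with at least 50 cells per library, for the nuclear members (black circles) and the mt- genes (grey squares), with intervals of counting error on a log axis. Nuclear ratios run from 0.920 to 1.04, and most mt- ratios lie further to the left.

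A gene counts as measured where its mean CPM over the libraries gives at least 50 expected UMIs in the smaller one, which all 93 members met over all cells. There 80 members were lower and 13 higher in APOE4, where 46.3% of all measured genes were lower. Their median log2 ratio was -0.14, against 0.03 for all 11684 measured genes. Without Skin resident Mø the median was -0.08 and 71 were lower. Past 1.5-fold were 4 members, against 15.2% of all measured genes. The 2 figures are not matched for abundance, since members had a median of 10688 UMIs and the bound for measured genes is 50 expected UMIs. All 4 were lower in APOE4, a direction that 7.22% of all measured genes took past this fold.

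These 4 were the scarce complex IV isoforms. Ndufa4l2 had 129 UMIs in APOE2 and 23 in APOE4 (ratio 0.193, 0.118 to 0.302), and Cox7a1 had 197 and 65 (0.357, 0.265 to 0.474). Few cells carried Ndufa4l2: in APOE2 3 stromal cells held 57 of its UMIs and 3 cells of Mø cluster 2 held 45. In APOE4 3 stromal cells held 17. The interval does not cover this. Cox4i2 had 118 and 55 (0.504, 0.359 to 0.699), and Cox6b2 had 378 and 196 (0.560, 0.469 to 0.668). With the mean over labels in place of the sum over cells, 2 of 84 members were past 1.5-fold. These were Cox6b2 and Cox6a2, both lower in APOE4. The mean takes only labels in which a gene is measured, and for Cox6a2 this was pDCs alone. Ndufa4l2, Cox7a1 and Cox4i2 were too scarce to be measured in any single label. Within Mø cluster 2 the cells with a UMI were 13.1% and 4.35% for Cox7a1, 4.27% and 1.86% for Cox4i2, 2.26% and 1.24% for Ndufa4l2, and 3.77% and 4.35% for Cox6b2.

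**Figure D5:**
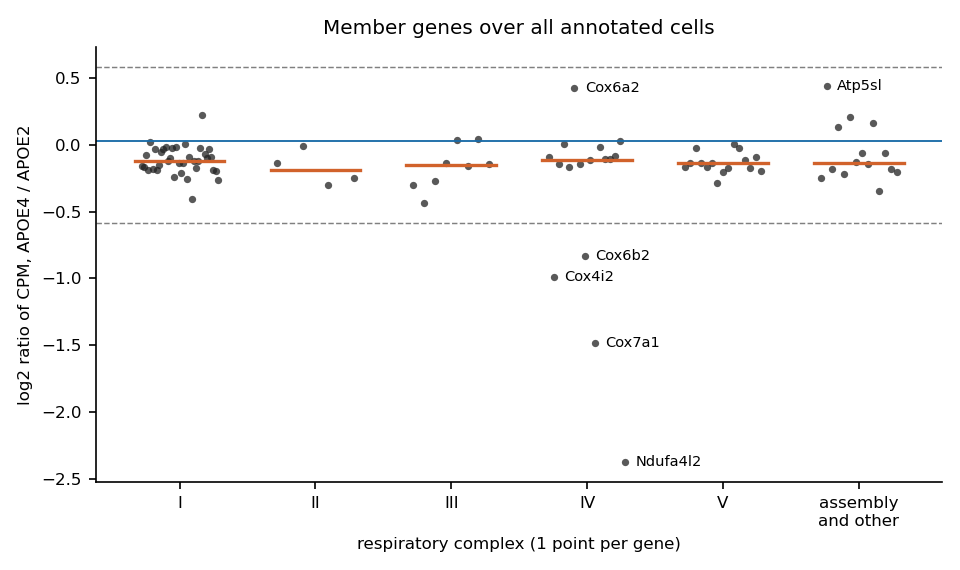
Log2 ratio APOE4/APOE2 of each member's CPM over all annotated cells, by complex, with orange bars at the median of each complex, a blue line at the median of all measured genes (0.03) and dashed lines at 1.5-fold. The 4 points below the lower dashed line are Cox6b2, Cox4i2, Cox7a1 and Ndufa4l2.

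The most abundant members differed little. In complex IV, Cox4i1 was at 950 and 890 CPM (0.937, 0.923 to 0.951) and Cox8a at 855 and 806 (0.943, 0.928 to 0.958). In complex III, Uqcrh, the hinge protein that binds cytochrome c1, was at 603 and 621 CPM (1.03, 1.01 to 1.05), while Uqcrb was at 320 and 265 (0.828, 0.806 to 0.850) and lower in 15 of 17 labels. The other abundant members of that complex were Uqcrq at 265 and 241 CPM and Uqcr10 at 218 and 177.

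In complex V, Atp5l was at 598 and 561 CPM and Atp5e, the epsilon subunit, at 535 and 478, the latter lower in 18 of 19 labels. Atp5g2 was at 499 and 433 CPM and lower in 16 of 18 labels, and Atp5b was at 486 and 442. In complex I, Ndufa13 was at 329 and 334 CPM, Ndufb9 at 265 and 249, Ndufa6 at 261 and 235, and Ndufa2 at 262 and 231. All 4 members of complex II had a ratio below 1, with an interval that holds 1 for Sdhb: Sdha, the flavoprotein, at 101 and 92.0 CPM, Sdhb, the iron-sulfur protein, at 139 and 138, Sdhc at 84.8 and 68.7 and Sdhd at 131 and 111. Within labels, Sdha and Sdhb were higher in APOE4 in 10 of 16 each, and Sdhc and Sdhd in 4 of 13 and 7 of 16.

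Within labels, 9 of 1285 combinations of a member and a label were past 1.5-fold, where the labels' share over all measured genes ran from 5.27% to 17.6%. These shares, too, are not matched for abundance. In 11 of 19 labels no member was. The share of all genes past 1.5-fold there was 5.29% in Mø cluster 2, 7.25% in Monocytes 2, 7.59% in stromal cells, 7.65% in Migratory DCs and 8.51% in CD8+ T cells. It was 8.61% in G-MDSC 1, 9.19% in NKT cells, 9.99% in Mø cluster 1, 10% in Ki67+ CD8+ T cells, 10.2% in Monocytic DCs and 12.7% in Monocytes 1. In pDCs 1 of 73 members was past it, Cox6a2 (log2 -0.61), against 6.46% of all genes. Over all cells Cox6a2 went the other way, at 28.5 and 38.3 CPM (ratio 1.34), with 111 pDCs in APOE2 and 205 in APOE4. In cDC 2 the members past it were Cox6b2, lower, and Ndufaf3, higher, 2 of 82 against 11.6%. In Monocytes 3 it was Ndufs3, a core subunit of complex I, at 57.4 CPM in APOE2 and 101 CPM in APOE4, 1 of 72 against 5.27%. In cDC 1 it was Ndufa9 at 65.6 and 107 CPM (6.63% of all genes), in NK cluster 2 Ndufb2 at 76.1 and 44.8 (6.44%), and in M-MDSC 1 Ndufa6 at 120 and 76.4 (17.6%). Ndufs3, Ndufa9 and Ndufb2 were chosen after their values were seen.

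Single assembly factors went in different directions. Sdhaf1, which helps insert the iron-sulfur clusters of complex II, was lower in APOE4 in 7 of 7 labels where it was measured, with a mean log2 of -0.32. In the cluster named Diverse it was at 48.6 CPM in APOE2 (124 UMIs) and 23.1 CPM in APOE4 (77 UMIs), and in CD4+ T cells at 112 and 68.9 CPM (101 and 83 UMIs). These are the 2 remaining combinations past 1.5-fold, against 11.3% and 7.13% of all genes in those labels. In cDC 2 it was at 36.8 and 36.4 CPM. Its level was highest in Migratory DCs, at 143 and 133 CPM, 5.14 times its median over labels.

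Ndufaf3, an assembly factor of complex I, was higher in APOE4 in 5 of 5 labels, with a mean log2 of 0.44. It was at 32.2 and 51.9 CPM in cDC 2 (139 and 160 UMIs) and at 25.6 and 37.6 CPM in Monocytes 1 (79 and 98 UMIs). Below the bound for measured genes it was lower in others, such as stromal cells at 38.6 and 31.2 CPM. Ndufaf7 was higher in 2 of 2 labels. Ndufs4, a late-joining subunit of complex I, was at 103 and 120 CPM over all cells (1.17, 1.12 to 1.22) and higher in 12 of 16 labels. Ndufv3 was lower in 14 of 16, with a mean log2 of -0.20.

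Sums over all cells and single labels could point different ways. Ndufab1, the acyl carrier protein of the mitochondrion and part of complex I, was at 146 and 134 CPM over all cells but higher in APOE4 in 12 of 16 labels. It was at 583 and 601 CPM in Skin resident Mø. Atp5sl was at 12.9 and 17.6 CPM over all cells (1.36, 1.21 to 1.53) and was measured in no single label. Cox7a2l, at 459 and 404 CPM, was lower in cDC 1 (491 and 373 CPM) and Mø cluster 1 (516 and 407 CPM) and higher in 8 of 19 labels.

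Lists of other genes of mitochondria and energy metabolism were summed in the same way. Electron carriers and ATP export were lower in APOE4 in 18 of 19 labels, with a mean log2 of -0.13, and 1 of 13 genes was past 1.5-fold over all cells. That gene was Atpif1, the inhibitor of ATP synthase in reverse, at 384 and 245 CPM. The tricarboxylic acid cycle was lower in 14 of 19, with 0 of 16 genes past 1.5-fold in either direction. Mitochondrial ribosomal protein genes were lower in 14 of 19, with 0 of 76. Cytosolic ribosomal protein names were lower in 16 of 19, with 1 of 91, which was Rps6ka2, a kinase taken in by its name.

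Glycolysis was lower in 18 of 19 labels with a mean log2 of -0.28, at 5296 and 4076 CPM over all cells, and 1 of 15 genes, Pgk1, was past 1.5-fold, at 30.1 and 19.6 CPM. Factors of assembly and biogenesis outside the naming rule did not share this: their sum was lower in 8 of 19 labels, with a mean log2 of 0.00. There Sco1, a copper chaperone of complex IV, was the 1 of 29 measured genes past 1.5-fold, at 4.98 and 7.85 CPM. All of these lists read the same 2 libraries, so their directions are not separate evidence.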

How the data were processed

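For each genotype the authors deposited a matrix of unnormalised UMI counts, written by Cell Ranger 3.0.1 per the file headers, on build mm10 per the submitters' processing notes. Their deposited cell table lists library, cell name, UMI count and the percent of mitochondrial UMIs; the processing notes name Seurat 3.0.2. The treatment of doublets, the naming of cells and the use of strand in counting: not given in the sources used here. No doublet caller was run. Many members have near-identical processed pseudogenes, and reads that match both can be lost, so single-gene levels carry that uncertainty.

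UMIs of annotated cells were summed per label and library (Python 3.11.15, scipy 1.17.1) and divided by all UMIs of the label. Matrix totals exceeded the authors' counts by 0.0158% (APOE2) and 0.0167% (APOE4). Shares carry exact Clopper-Pearson intervals and ratios the exact conditional binomial interval of 2 counts, at 95%. No test was made, since each genotype has 1 library. The fold calls and ratio intervals of single genes were tried on simulated counts that carry counting error only. Named genes are the 4 most abundant members per complex and the isoform sets. The 4 highest and lowest ratios over all cells and over labels were added. So were the 4 members with the largest ratio of highest to median label. Others are said to be chosen later. The members and lists were chosen with earlier results of these data known. Alternatives changed the denominator, the members, the weighting and filtering of cells, the count minimum, the scaling and the fold.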

Additional observations from a re-analysis of the deposited data

Results flagged for a closer look

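The summed members were higher in APOE4 in cDC 1 (ratio 1.04) and cDC 2 (1.02), with intervals above 1, where the other 17 labels with at least 50 cells per library were below 1. With 1 library per genotype the difference between labels was not tested. In cDC 1, 52 of 74 measured members (70.3%) were higher, against 59.9% of all measured genes. In cDC 2 they were 51 of 82 (62.2%), against 59.4%, and the members' median log2 ratio of 0.02 was below that of all measured genes, 0.06.

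Barcodes outside the authors' annotation, which enter no comparison, also held member UMIs: 2.62% (2.60 to 2.64) in 398 barcodes of APOE2 and 1.96% (1.94 to 1.98) in 304 barcodes of APOE4. Annotated cells held 1.96% and 1.81%. The share of mt- UMIs in these barcodes was 13.4% and 13.6%, and median depth was 1671 and 1093 UMIs.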

How the results depend on the processing

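The 4 MDSC labels stayed below the median other label and Skin resident Mø above it under every alternative that gave a value; for Skin resident Mø in APOE4 no cell had under 5% mitochondrial UMIs. With mt- and ribosomal protein genes out of the denominator, MDSC were 2.81-fold and 2.99-fold lower (APOE2, APOE4), Skin resident Mø 2.78-fold and 2.97-fold higher, the log2 ratio APOE4/APOE2 over all cells was -0.14, its mean over labels -0.073, and 1 of 19 labels was higher, cDC 1, with cDC 2 at -0.00081. Without the 5 most abundant members the values were 2.43-fold and 2.70-fold, 2.76-fold and 2.84-fold, and -0.12. With equal weight per cell the Skin resident Mø folds were 2.69 and 2.72 and the log2 ratio -0.083. With cells under 5% mitochondrial UMIs they were 2.26 (APOE2) and -0.055, and the members' median log2 ratio was -0.059. Without the 5% deepest cells MDSC in APOE2 were 2.21-fold lower, Skin resident Mø in APOE4 2.82-fold higher, and 4 labels were higher in APOE4. With subunits only the Skin resident Mø fold in APOE2 was 2.74. With at least 100 cells per library 1 of 15 labels was higher.

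Members past the fold numbered 2 with at least 100 expected UMIs, 2 with the mean over labels (median log2 -0.049), 2 past 2-fold and 9 past a lower bound that 34.5% of all genes passed. Scaling by the median of ratios gave a median of -0.16. Chosen after seeing the data, leaving out Skin resident Mø gave -0.067 for the sum and -0.081 for the median, and leaving out the MDSC labels gave -0.11 for the sum. The cause of these shifts was not tested. Depth limits single members in small labels: in G-MDSC 1 only 9 members were measured. No paired analysis was possible because each genotype has 1 library.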
